A study of Homo sapiens with 2 samples.

Results

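The regions described here are proximal promoters, the stretch of DNA just upstream of the start of a gene, as covered by a set of 2 promoter arrays. Their members are the probes that the array annotation places in the promoter of a single gene, from -1000 to 0 bp relative to the transcription start of the gene listed first, and promoters shared by a divergent gene pair were not included. Of 474411 genomic probes, 61139 (12.9%) met this rule, 31097 on the array called chIP1 and 30042 on the array called chIP2, and 61092 were kept after the filter on dim and uneven spots. They lay upstream of 13984 genes with a median of 4 probes per gene, and 949 genes had a single probe. The probes were 45 to 60 bases long, and adjacent members were a median of 160.5 bp apart.

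To determine where GATA1 occupies promoters in megakaryocytic leukemia cells, DNA recovered with an antibody to the C-terminus of GATA1 (the IP, labeled with Cy5) was hybridized together with DNA recovered with normal goat IgG (Cy3). Both came from non-treated Meg-01 cells, an established human megakaryocytic leukemia line, and from the same preparation of soluble chromatin. The arrays hold different probes, so each member has 1 value, without a replicate or a dye swap, no test over samples was possible, and every difference given below is a description of these hybridizations. The build behind the array coordinates is not given in the sources used here, and the array coordinates are printed as they were deposited.

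The zinc finger protein GATA1 binds GATA sequences and is required for the development of red cells and platelet-forming megakaryocytes. It activates or represses its targets together with cofactors, and it binds both proximal promoters and distal enhancers. A proximal promoter is where RNA polymerase and the general transcription factors assemble, often on GC-rich DNA rich in CpG, whereas promoters of tissue-restricted genes are more often AT-rich.

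The values below are log2(IP/IgG) of the processed signals after centering each array on its median. A window is the mean of 3 adjacent probes with a member at its center, and it was called enriched at 1 or more (2-fold toward the IP) and depleted at -1 or less (2-fold toward the IgG). The depleted side gives the share of windows past the same size in the other direction on the same arrays, and that share varied with GC content and brightness. To let the sequence be read beside the values, the 250 bases before the RefSeq transcription start are shown for 10 promoters with 1 start in the RefSeq table of build GRCh38.p14. CENPE (chr4:103198344-103198593, minus strand) and SH3BP5L (chr1:248825916-248826165, minus strand) had the highest mean values among well-measured genes with such a sequence. CPOX (chr3:98593612-98593861, minus strand) and EPB42 (chr15:43221019-43221268, minus strand) are red cell genes with high windows. CLEC1B (chr12:9999122-9999371, minus strand) and F2RL3 (chr19:16888749-16888998, plus strand) are platelet genes with high windows. MEIS1 (chr2:66434875-66435124, plus strand) and MYB (chr6:135181058-135181307, plus strand) encode hematopoietic transcription factors with high windows. EDG7, now LPAR3 (chr1:84893207-84893456, minus strand), and K6HF, now KRT75 (chr12:52434372-52434621, minus strand), had low mean values. Capitals mark a GATA motif read on either strand. The motif searched was AGATAA or its variant ending in G, which is spelled AGATAG, and the same letters with T at the first base, which are spelled TGATAA for the first and, for the variant ending in G, TGATAG.
CENPE: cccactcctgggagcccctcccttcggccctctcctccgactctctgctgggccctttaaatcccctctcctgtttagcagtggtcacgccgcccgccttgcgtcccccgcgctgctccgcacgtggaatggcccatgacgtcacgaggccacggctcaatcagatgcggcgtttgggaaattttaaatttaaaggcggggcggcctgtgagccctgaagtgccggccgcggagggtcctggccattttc
SH3BP5L: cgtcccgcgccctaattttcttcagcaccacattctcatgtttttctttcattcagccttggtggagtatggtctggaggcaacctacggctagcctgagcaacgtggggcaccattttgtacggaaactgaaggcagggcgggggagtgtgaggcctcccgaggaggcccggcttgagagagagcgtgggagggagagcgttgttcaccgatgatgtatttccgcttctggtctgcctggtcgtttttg
CPOX: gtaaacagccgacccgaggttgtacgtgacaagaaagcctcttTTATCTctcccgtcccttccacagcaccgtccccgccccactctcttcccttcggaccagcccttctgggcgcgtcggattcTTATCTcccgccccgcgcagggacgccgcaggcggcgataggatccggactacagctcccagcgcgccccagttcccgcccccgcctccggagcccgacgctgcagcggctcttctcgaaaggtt
EPB42: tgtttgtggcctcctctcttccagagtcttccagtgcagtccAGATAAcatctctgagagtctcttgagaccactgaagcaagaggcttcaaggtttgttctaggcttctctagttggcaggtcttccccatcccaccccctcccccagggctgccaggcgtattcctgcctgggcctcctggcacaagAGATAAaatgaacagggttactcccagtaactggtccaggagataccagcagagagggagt
CLEC1B: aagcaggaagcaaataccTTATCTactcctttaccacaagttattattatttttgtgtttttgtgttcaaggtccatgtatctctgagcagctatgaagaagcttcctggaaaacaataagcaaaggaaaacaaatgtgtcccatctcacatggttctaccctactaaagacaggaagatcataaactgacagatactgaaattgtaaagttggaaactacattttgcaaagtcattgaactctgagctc
F2RL3: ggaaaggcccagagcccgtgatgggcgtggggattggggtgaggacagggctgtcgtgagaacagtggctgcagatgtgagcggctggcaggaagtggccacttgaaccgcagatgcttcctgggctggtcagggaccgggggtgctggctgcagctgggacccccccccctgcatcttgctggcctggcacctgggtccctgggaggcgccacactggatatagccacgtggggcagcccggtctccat
MEIS1: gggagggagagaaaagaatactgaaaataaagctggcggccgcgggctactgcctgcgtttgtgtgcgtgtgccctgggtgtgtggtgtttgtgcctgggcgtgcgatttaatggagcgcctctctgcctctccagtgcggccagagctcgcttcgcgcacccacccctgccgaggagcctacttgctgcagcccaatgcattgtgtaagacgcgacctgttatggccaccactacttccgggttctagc
MYB: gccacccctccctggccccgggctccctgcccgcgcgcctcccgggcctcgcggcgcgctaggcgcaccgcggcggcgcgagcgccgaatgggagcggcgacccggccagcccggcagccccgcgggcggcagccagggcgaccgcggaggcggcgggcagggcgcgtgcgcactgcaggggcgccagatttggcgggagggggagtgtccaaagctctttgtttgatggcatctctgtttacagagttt
EDG7: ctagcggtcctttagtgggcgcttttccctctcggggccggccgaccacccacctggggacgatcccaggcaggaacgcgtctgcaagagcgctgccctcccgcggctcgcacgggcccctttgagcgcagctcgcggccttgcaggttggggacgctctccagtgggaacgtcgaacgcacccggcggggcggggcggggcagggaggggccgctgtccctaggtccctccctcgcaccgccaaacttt
K6HF: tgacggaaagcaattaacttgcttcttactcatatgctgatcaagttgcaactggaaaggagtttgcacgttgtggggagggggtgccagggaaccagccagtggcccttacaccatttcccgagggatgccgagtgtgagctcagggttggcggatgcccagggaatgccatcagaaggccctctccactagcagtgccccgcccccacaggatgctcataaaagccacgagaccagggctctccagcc

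CPOX held 2 GATA motifs, with first bases at -207 and -125 bp from the RefSeq start, EPB42 held 2 at -208 and -61 bp, and CLEC1B held 1 at -232 bp. The other 7 sequences held 0 in these 250 bases, the high and the low promoters alike. A match of letters is a description and not a bound site. These positions are counted from the RefSeq start and probe positions from the start in the array annotation, and the pair of scales was not aligned. Of all 35116 promoters in the RefSeq table, 22.3% held at least 1 GATA motif in the same length.

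Proximal promoters lay on the IP side of the arrays. The median member had a log2(IP/IgG) of 0.18, with quartiles at -0.33 and 0.64, against the array median of 0 that all probes were set to. The median was 0.20 on chIP1 and 0.16 on chIP2. Of 57456 windows, 5460 (9.5%) were enriched and 3378 (5.88%) were depleted, whereas over all windows of the arrays 7.62% were enriched and 9.65% were depleted. The IP side thus held 61.8% of the member windows past 2-fold, with 64.0% on chIP1 and 59.3% on chIP2, against 44.1% over all windows. These shares were close between the arrays, which carry different chromosomes.

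The values declined with distance from the start. The median log2(IP/IgG) was 0.29 in the last 100 bp before the start, 0.17 between -499 and -400 bp and -0.01 between -1000 and -900 bp. The share of enriched windows was 11.2% in the last 100 bp, 11.5% between -199 and -100 bp and 7.24% between -1000 and -900 bp, and the share of depleted windows ran the other way, at 4.43%, 4.46% and 8.03%. On chIP1 the median went from 0.01 in the step farthest from the start to 0.31 in the nearest, and on chIP2 from -0.03 to 0.27. The lower quartile changed more than the upper one, from -0.57 to -0.10 against 0.50 to 0.73. Probes just outside the limits had values near those just inside. Promoter probes in the next 100 bp upstream of the -1000 bp limit had a median of -0.04, with 6.97% enriched and 9.15% depleted windows, and probes in the first 100 bp of the gene body had a median of 0.30, with 11.7% and 3.25%. The median processed IP signal of the members moved with the distance too, from 969.6 in the farthest step to 1318 in the nearest, and the IgG signal from 1025 to 1104. The part of the signal level in the profile was not tested.

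**Figure D1:**
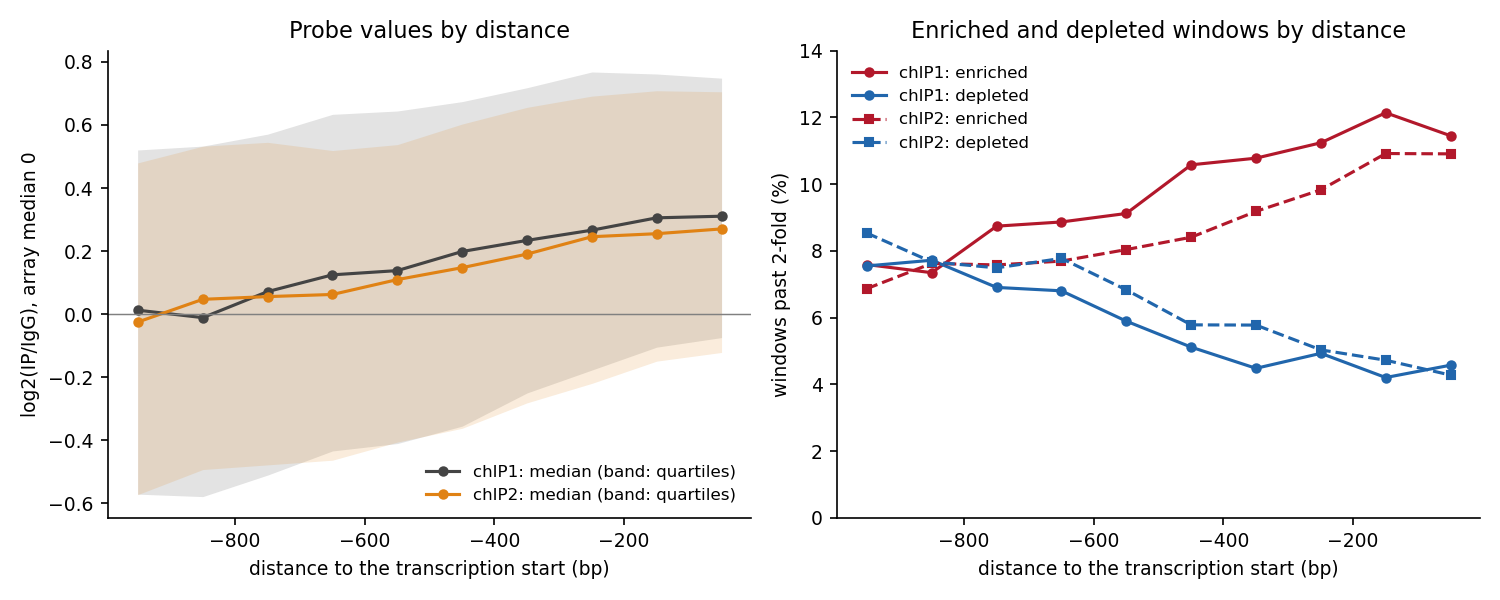
Left, median log2(IP/IgG) of member probes (lines, with quartiles as bands) against distance to the transcription start in bp, in steps of 100 bp, for chIP1 and chIP2. Right, the percent of windows enriched or depleted at least 2-fold; in the step nearest to the start 11.5% and 10.9% were enriched and 4.58% and 4.28% depleted, and farthest from it the shares lay between 6.87% and 8.54%.

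Compared with the neighboring classes of regions, single-gene proximal promoters stood between divergent promoters and the distal upstream regions. Divergent promoters within 1 kb upstream, with 3735 kept probes, had a median of 0.36, and 15% of their windows were enriched and 2.05% depleted. The first 1 kb of the gene body had a median of 0.20, with 8.87% enriched and 4.67% depleted. Single-gene promoter probes 1 to 2 kb upstream had a median of -0.09, with 6.75% enriched and 11% depleted, and those beyond 2 kb had a median of -0.19, with 6.59% and 14.9%. The share of depleted windows put the classes in one order on both arrays, with divergent promoters lowest, then gene bodies (4.68% on chIP1 and 4.65% on chIP2), the single-gene proximal promoters (5.63% and 6.14%) and the distal regions. The median processed IP signals of these classes followed the same order, at 2055 for divergent promoters, 1168 for single-gene proximal promoters, 781 from 1 to 2 kb and 606 beyond 2 kb, and whether brightness sets the order was not tested.

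**Figure D2:**
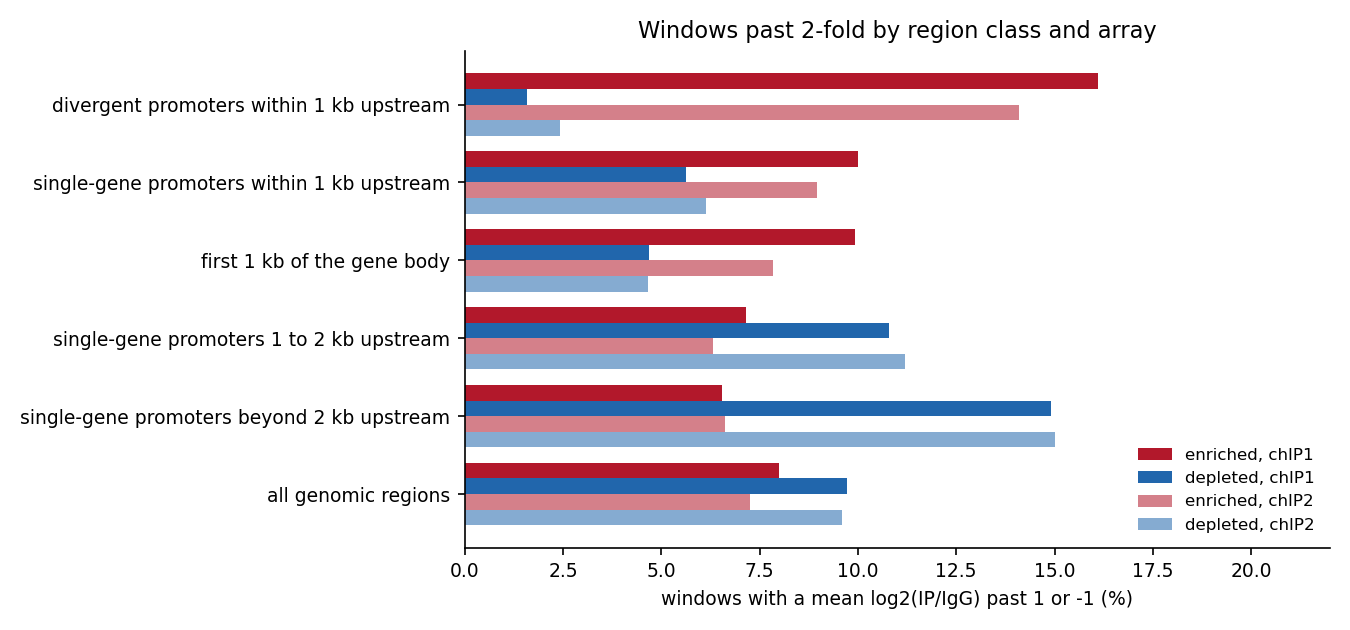
Percent of windows (horizontal axis) with a mean log2(IP/IgG) of at least 1 (red) or at most -1 (blue) in 5 region classes and all genomic regions (vertical axis), in dark bars for chIP1 and pale bars for chIP2. Single-gene proximal promoters had more enriched than depleted windows on both arrays, and regions over 1 kb upstream had more depleted ones.

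Single probes of a promoter varied widely around their mean. Among 9152 genes with at least 4 members, the SD of the gene means was 0.61. The pooled SD of the probes within a gene, taken over all genes with more than 1 member, was 0.74. In 1912 of the 9152 genes (20.9%) every probe was above 0, and in 661 (7.22%) every probe was below 0. All probes were at 1 or more in 35 genes and at -1 or less in 43 genes. Adjacent members of a gene were alike when they lay close together. Across 21052 pairs up to 150 bp apart, Pearson's r was 0.66, across 20678 pairs 150 to 300 bp apart it was 0.49, across 4239 pairs 300 to 600 bp apart 0.23 and across 631 pairs 600 to 1000 bp apart 0.10. These pairs share a hybridization and often DNA fragments and base composition, and the values are a description.

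Of the 13279 genes with a proximal window, 2768 (20.8%) had an enriched one, 1619 (12.2%) had a depleted one and 157 had both, while 9049 had neither. These shares are the background for the gene lists below. Among the genes with an enriched window, 1215 (43.9%) had a single enriched window, 830 had 2, 451 had 3, 169 had 4 and 103 had 5 or more. The median of the gene means was 0.20, 64.2% of the 13984 genes had a mean above 0, and 1154 genes had a mean of 1 or more against 669 with -1 or less. By chromosome, an enriched window was present in a share of genes that went from 14% of 164 genes on chromosome 21 to 31.1% of 508 genes on chromosome X, leaving aside the 39 genes on chromosome Y (10.3%). Chromosome X also had the highest share of genes with a depleted window, 22.4%, so its promoters were spread out in both directions. On chromosome 19 both shares were low, at 16.1% and 3.25% of 799 genes.

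Promoter means were ranked over the 4418 genes with at least 4 members and a mean intensity at or above the array median, and the 10 highest and the 10 lowest are described here. CENPE, a kinesin that attaches chromosomes to the spindle, led with probe values of 1.86 at -541 bp, 2.03 at -290 bp, 2.64 at -124 bp and 1.89 at -14 bp. All 4 probes were over 3-fold toward the IP, and the highest window, on chromosome 4 from 104477160 to 104477490, had a mean of 2.19. AKAP9, a scaffold protein of the centrosome and Golgi, had a mean of 2.05, with values of 1.67, 3.49, 2.86, 1.71 and 0.49 from -555 to -56 bp. Its peak lay between -446 and -309 bp, and the probe nearest to the start was the lowest. HNRPC, which encodes an hnRNP protein that packages pre-mRNA, had 0.09 at -937 bp and then 1.98, 2.41, 2.53 and 1.99 from -527 to -81 bp. The signal was thus absent from its farthest probe and high in the rest. CPOX, an enzyme of heme synthesis, had 0.85 at -959 bp, 1.60 at -493 bp, 2.29 at -241 bp and 2.43 at -6 bp, so each probe was higher than the one farther from the start. PHB, or prohibitin, a protein of the inner mitochondrial membrane, had values from 1.505 to 2.30 over 4 probes. The other 5 of the 10 highest were THAP1 (1.87), SH3BP5L (1.85), the gene listed as bA16L21.2.1 (1.83), SCAMP1, a membrane trafficking protein (1.79), and IARS, the isoleucyl-tRNA synthetase (1.77), each value a gene mean. The eleventh gene had a mean of 1.75, so the tenth place is not sharply set. With normexp background correction, the highest windows of all 10 stayed above 1, among them CENPE at 2.01, AKAP9 at 1.98 and CPOX at 2.02.

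At the other end of the ranking, EDG7, a lysophosphatidic acid receptor, had -1.31, -1.41, -1.99, -2.06 and -1.85 from -885 to -234 bp. All 5 probes were over 2-fold toward the IgG. RNASE12, of the ribonuclease A family, had the lowest mean, -1.74, with probes between -2.92 and -0.63. TRIM40 had a mean of -1.32 and probes between -1.69 and -0.98. FAS, a death receptor, had -1.47, -2.44, -2.08 and -1.10 from -646 to -146 bp and 0.11 at -28 bp, so that the probe nearest to the start did not share the low values. The other 6 were SIRPB1 (-1.63), FLJ25477 (-1.52), the hair follicle keratin K6HF (-1.45), ZHX3 (-1.32), C20orf185 (-1.30) and GRIN1, a subunit of the NMDA receptor (-1.29), each again a gene mean.

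**Figure D3:**
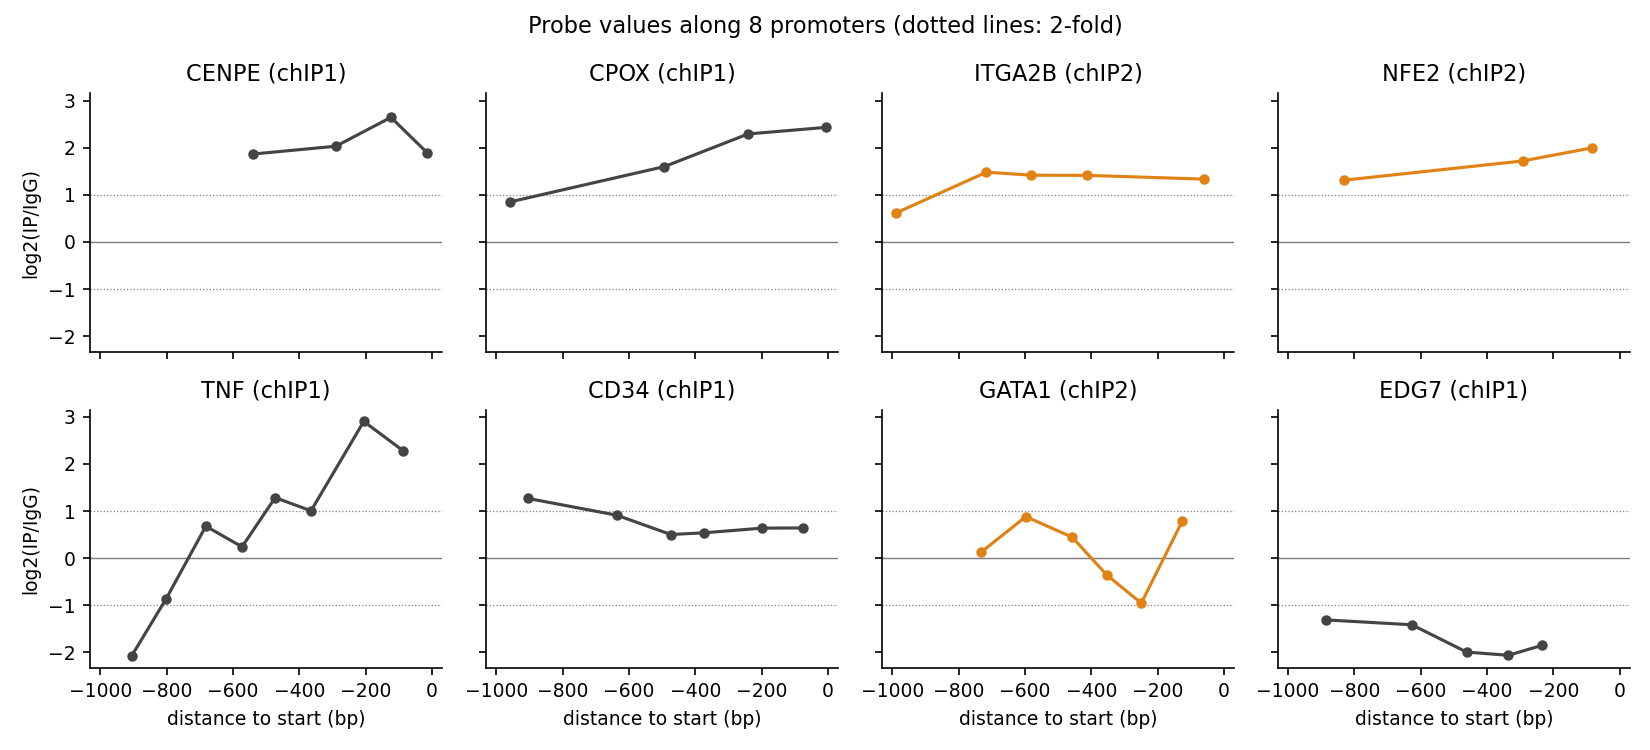
Log2(IP/IgG) of each probe (points) against its distance to the transcription start in bp at 8 promoters, in gray for chIP1 and orange for chIP2, with dotted lines at 2-fold. CENPE was over 1.8 at all 4 probes, CPOX and TNF were highest toward the start, GATA1 stayed between -0.95 and 0.88, and EDG7 was below -1.3 throughout.

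A set of 12 genes, chosen from those tested by PCR in the study or named in its text, was compared next within the proximal 1 kb alone. TNF, an inflammatory cytokine, had the highest window of these 12 genes, while by gene mean CD34 (0.75) was above TNF (0.68). The 8 probes of TNF ran from -2.08 at -906 bp and -0.87 at -802 bp to 2.90 at -206 bp and 2.28 at -87 bp, and the window at -206 bp had a mean of 2.06. The TNF promoter held both the highest and the lowest probe value among these genes. CD34, a surface protein of blood progenitors, had 1.27 at -904 bp and between 0.50 and 0.91 at its other 5 probes. Its highest window of 1.35 was centered at -904 bp and took in a probe upstream of the members of that gene. The next CD34 window, centered at -636 bp and made of members alone, was 0.89, below 2-fold. EVI1, a leukemia-associated transcription factor, had probes from 0.13 to 1.51 and a highest window of 1.03. None of the other 9 genes had an enriched proximal window. The study listed ANXA5 and MYCN among genes with a bound region on its arrays, and it named VEGF as a direct target from them. It also checked its array results by PCR. The peak calling of the study was not repeated, and only windows centered within the proximal 1 kb are described here. The highest proximal windows were 0.68 for BCL2L1, which encodes the survival protein Bcl-xL, 0.59 for GATA1, 0.57 for RUNX3, 0.55 for MYCN, 0.33 for IL1A, 0.33 for NCAM1, 0.29 for IGFBP7, 0.20 for ANXA5 and 0.14 for VEGF. DYRK1A, a kinase gene also named there but not in this set, had 15 probes with a mean of -0.07 and a highest window of 0.33.

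At BCL2L1 the 6 probes were 0.80 at -934 bp, 0.31 at -686 bp, -0.15 at -582 bp, -0.15 at -475 bp, -0.36 at -370 bp and -0.60 at -154 bp. Its values were lowest next to the annotated start, the reverse of the profile over all members. By ChIP and PCR, the study reported that the GATA1 antibody precipitated the promoter region of this gene. It also reported activation of a reporter with this promoter by GATA1. The primers there spanned the start as the study numbers it, and the nearest member here, at -154 bp, had the lowest value. The start used there and the annotated start here were not aligned. At GATA1 the probes lay on both sides of 0, with 0.12 at -733 bp, 0.88 at -597 bp, 0.44 at -457 bp, -0.36 at -353 bp, -0.95 at -249 bp and 0.78 at -126 bp. VEGF had -1.30 at -900 bp and from -0.33 to 0.37 at the other 5 probes. MYCN had 8 probes between -0.22 and 0.77, and no probe past 2-fold.

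Pooled over both arrays, genes of the blood lineages had promoter medians above that of all genes. The erythroid list, with hemoglobin, heme synthesis and red cell membrane genes, had 36 genes with members and a median gene mean of 0.36, the megakaryocyte and platelet list had 40 genes and a median of 0.33, and the list of hematopoietic transcription factors had 41 genes and a median of 0.35, against 0.20 over all genes. The 95% intervals of these medians, which treat genes as independent, were 0.07 to 0.53, 0.11 to 0.55 and 0.15 to 0.60. Each interval held the 0.20 of all genes. On chIP1 and chIP2, the medians were 0.41 and 0.19 for the erythroid list, 0.17 and 0.71 for the megakaryocyte and platelet list and 0.40 and 0.23 for the transcription factors, beside 0.21 and 0.19 for all genes. The median of the megakaryocyte and platelet list was thus below that of all genes on chIP1, and with normexp it was 0.20 on both arrays together, where all genes had 0.19. An enriched window was present in 6 of 31 erythroid genes (19.4%), 12 of 38 megakaryocyte and platelet genes (31.6%) and 15 of 40 transcription factor genes (37.5%), beside 20.8% of all genes with a window. Depleted windows were present in 1, 5 and 2 genes of these lists. Split by array, the enriched share of the erythroid list was 29.4% of 17 genes on chIP1 and 7.14% of 14 on chIP2, that of the megakaryocyte and platelet list 23.8% of 21 and 41.2% of 17, and that of the transcription factors 50% of 16 and 29.2% of 24. The share of the erythroid list thus lay above the background on chIP1 (22.1%) and below it on chIP2 (19.6%), and the other lists lay above it on both arrays. A list of 44 genes of other tissues had a median of -0.05, with 7 of 41 genes enriched and 9 depleted.

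Among the erythroid genes, the highest windows were those of ADD2, a membrane skeleton protein (2.53), CPOX (2.11), EPB42, a membrane protein of red cells (1.42), KEL, the Kell antigen (1.21), and BPGM, an enzyme of red cell glycolysis (1.13). The sixth was ANK1 (1.02), another membrane skeleton protein. With loess, ANK1 (0.85) and BPGM (0.99) fell below 1, and with normexp none of the 6 did. The ADD2 promoter was dim, at an intensity percentile of 4.84 among genes, and its probes ran from 0.80 to 3.52. Its highest window was centered at -941 bp and took in a probe upstream of the members of that gene. EPB42 had 0.53, 1.18, 1.09 and 1.42 from -488 to -94 bp, all toward the IP. KEL held 2 GATA motifs in the 250 bases before its RefSeq start, at -62 and -26 bp. Its highest window was centered at -115 bp, where the probe itself was at 0.80. That window also took in the probe at -686 bp (1.26) and a probe outside the members of the gene. The KEL window of members alone was 0.67. The globin genes, singled out after their values were seen, went in different directions. HBB, the adult beta globin, had a gene mean of -0.23 and a highest window of -0.08, and HBE1, the embryonic one, had a mean of -0.87 and a depleted window of -1.08. HBA1 had a value of 1.44, but from 1 probe, and HBA1 and HBA2 are near-identical copies whose DNA can cross-hybridize.

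Among the megakaryocyte and platelet genes, the highest windows were those of CD36, a scavenger receptor (2.51), CLEC1B, the platelet receptor CLEC-2 (2.00), F2RL3, a thrombin receptor (1.67), PDGFB, a growth factor of platelet granules (1.59), and ITGA2B, the alpha IIb integrin that marks the lineage (1.44). The CD36 window held a probe whose IgG signal was not well above background, so its ratio is no measured value. CD36 spans 2 promoters under 1 symbol, with 13 probes and a gene mean of 0.28. CLEC1B had -0.78 at -672 bp, 0.79 at -465 bp, 2.71 at -208 bp and 2.51 at -101 bp. Its highest probes were the pair nearest to the annotated start, and its promoter was dim, at an intensity percentile of 12.3. ITGA2B had 0.61 at -989 bp and then 1.48, 1.42, 1.41 and 1.33 from -716 to -61 bp, and it was bright, at an intensity percentile of 98.0. It held 1 GATA motif at -102 bp. The other 7 enriched genes were GP9, SELP, CD9, F13A1, RGS18, THBS1 and PRG1, with windows from 1.12 to 1.36. GP9 had 2 members, so its window took in a probe outside them. The RGS18 window did too, and the RGS18 window of members alone was 0.98. With normexp, 9 of the 12 fell below 1, and F2RL3 (1.84), ITGA2B (1.56) and PRG1 (1.09) did not. With windows of 5 probes, 7 of the 12 were still at 1 or more.

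Among the hematopoietic transcription factors, the highest windows were those of MEIS1 (1.98), FLI1 (1.95), MYB (1.91), GABPA (1.68) and NFE2 (1.68). The MEIS1 window was centered at -905 bp and took in a probe upstream of the members of that gene. NFE2, the large subunit of a factor that drives platelet formation, had 1.31 at -832 bp, 1.72 at -293 bp and 2.00 at -83 bp, at an intensity percentile of 95.2. FLI1, an ETS factor of megakaryocytes, had -0.10, 1.03, 0.55, 2.36 and 2.12 from -926 to -46 bp. In both promoters the highest probe was among the pair nearest to the start. GABPA, an ETS factor, had 7 probes between 0.50 and 1.86, highest at -156 bp. MYB was dim, at a percentile of 11.6, and its window was 0.61 with normexp. The other 10 enriched genes were SPI1, MYC, HOXA9, SRF, LYL1, MKL1, ERG, TAL1, KLF10 and EVI1, with windows from 1.03 to 1.49. SPI1, which encodes PU.1, had all 6 probes between 0.93 and 1.81. With normexp, 4 of the 15 fell below 1, which were MYB, HOXA9, KLF10 and EVI1, and with loess ERG did (0.97). With windows of 5 probes, KLF10, LYL1, MKL1 and TAL1 fell below 1. The highest windows of ERG, KLF10, LYL1 and TAL1 took in a probe outside the members of the gene. With members alone they were 0.81, 0.77, 0.90 and 0.81. TAL1 had 1.03 at -157 bp and 1.49 at -54 bp, against -0.27 at -661 bp.

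The ribosomal protein and spliceosomal lists had the highest medians of all lists with these values, while with loess they had 0.48 and 0.50, below the 0.57 of the genes tabulated in the study. The 58 ribosomal protein genes had a median gene mean of 0.68, 53 of them were above 0, and 19 of 55 (34.5%) had an enriched and 2 a depleted window. RPL13A had 1.97, 2.16 and 1.79 at its 3 probes, and RPS7 had a mean of 1.91 over 2, while RPL10L, a retrocopy expressed in testis, had -1.19. The spliceosomal list was matched by snRNP and LSM symbols, which can take in genes outside the spliceosome. It had a median of 0.65 (6 of 18 enriched, 3 depleted). Proteasome genes had a median of 0.50 (9 of 28 enriched, 0 depleted), with PSMB6 at 1.14 and PSMB5 at 1.12. The 57 cell cycle genes had a median of 0.50, with 21 of 54 enriched (38.9%) and 1 depleted. They included CENPE, CCND2, encoding cyclin D2, with a highest window of 2.498, and CCNA2, encoding cyclin A2, with a mean of 1.53. On chIP1 and chIP2, the medians were 0.68 and 0.64 for ribosomal proteins, 0.66 and 0.33 for the spliceosomal list, 0.50 and 0.47 for the proteasome and 0.51 and 0.48 for the cell cycle. The other housekeeping lists were nearer to all genes, with medians of 0.30 for the mitochondrial ribosome, 0.19 for the respiratory chain and 0.21 for histones. On chIP2, 1 of 7 genes of the spliceosomal list was enriched and 3 were depleted, among them LSM16. Zinc finger genes had a median of 0.30, with 70 of 297 enriched (23.6%).

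Several lists had medians below that of all genes. The 286 olfactory receptor genes, used in the sensory cells of the nose, had a median of -0.48, with -0.29 on chIP1 and -0.56 on chIP2, and 117 of 261 (44.8%) had a depleted window against 34 (13%) with an enriched one. Keratins and keratin-associated proteins had a median of -0.21, with 23 of 69 depleted and 11 enriched. Interleukin genes had a median of -0.11, with 11 of 36 depleted and 4 enriched, among them IL20 with a mean of -1.38. Chemokine genes (-0.01) had 7 of 33 enriched and 7 depleted, and the arrays differed, with a median of 0.23 and 6 of 17 enriched and 2 depleted on chIP1, and a median of -0.24 with 1 of 16 enriched and 5 depleted on chIP2. The BCL2 family, caspase and related apoptosis genes (-0.02) had 6 of 29 enriched and 3 depleted, with medians of 0.30 on chIP1 and -0.02 on chIP2. The interleukin medians were -0.17 and 0.05. The medians of the chemokine and apoptosis genes changed direction to 0.06 and 0.02 with loess, and that of the apoptosis genes to 0.05 with normexp. Collagen genes had a median of 0.10. For comparison, 37 of the 45 genes that the study tabulated had members here, with a median of 0.51 and an enriched window in 18 of 36 (50%), but the study chose them on these same arrays, so their values are not independent evidence.

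Several of the list medians moved with brightness, and others did not. The median intensity percentile among genes was 86.8 for ribosomal proteins, 79.4 for the spliceosomal list, 77.2 for the proteasome and 69.9 for the cell cycle, but 8.22 for olfactory receptors and 18.7 for keratins. The respiratory chain (78.0) and the mitochondrial ribosome (77.2) were as bright as the proteasome, with medians of only 0.19 and 0.30. Over all genes, divided into 4 equal groups by intensity, the median gene mean was 0.00 in the dimmest group, 0.13 and 0.22 in the next ones and 0.36 in the brightest. In the dimmest of 4 equal groups of members, 11.3% (chIP1) and 13.4% (chIP2) of the windows were depleted, against 0.641% and 0.884% in the brightest. The enriched share was also highest in the dimmest group, at 11.8% (chIP1) and 11.3% (chIP2), against 11.3% and 9.34% in the brightest. In the groups between, it lay from 7.47% to 8.75%. Within a group of genes, lists could lie away from the median of all its genes. In the dimmest group, with 0.00 over all genes, the 240 olfactory receptor genes had -0.48 and the 4 ribosomal protein genes -0.43. In the brightest group, with 0.36 over all genes, the 44 ribosomal protein genes had 0.70 and the 2 olfactory receptor genes -0.43. The blood lineage lists were nearer to the middle, at percentiles of 60.1 (erythroid), 42.9 (megakaryocyte and platelet) and 49.5 (transcription factors). The part of brightness in the lists was not tested further.

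**Figure D4:**
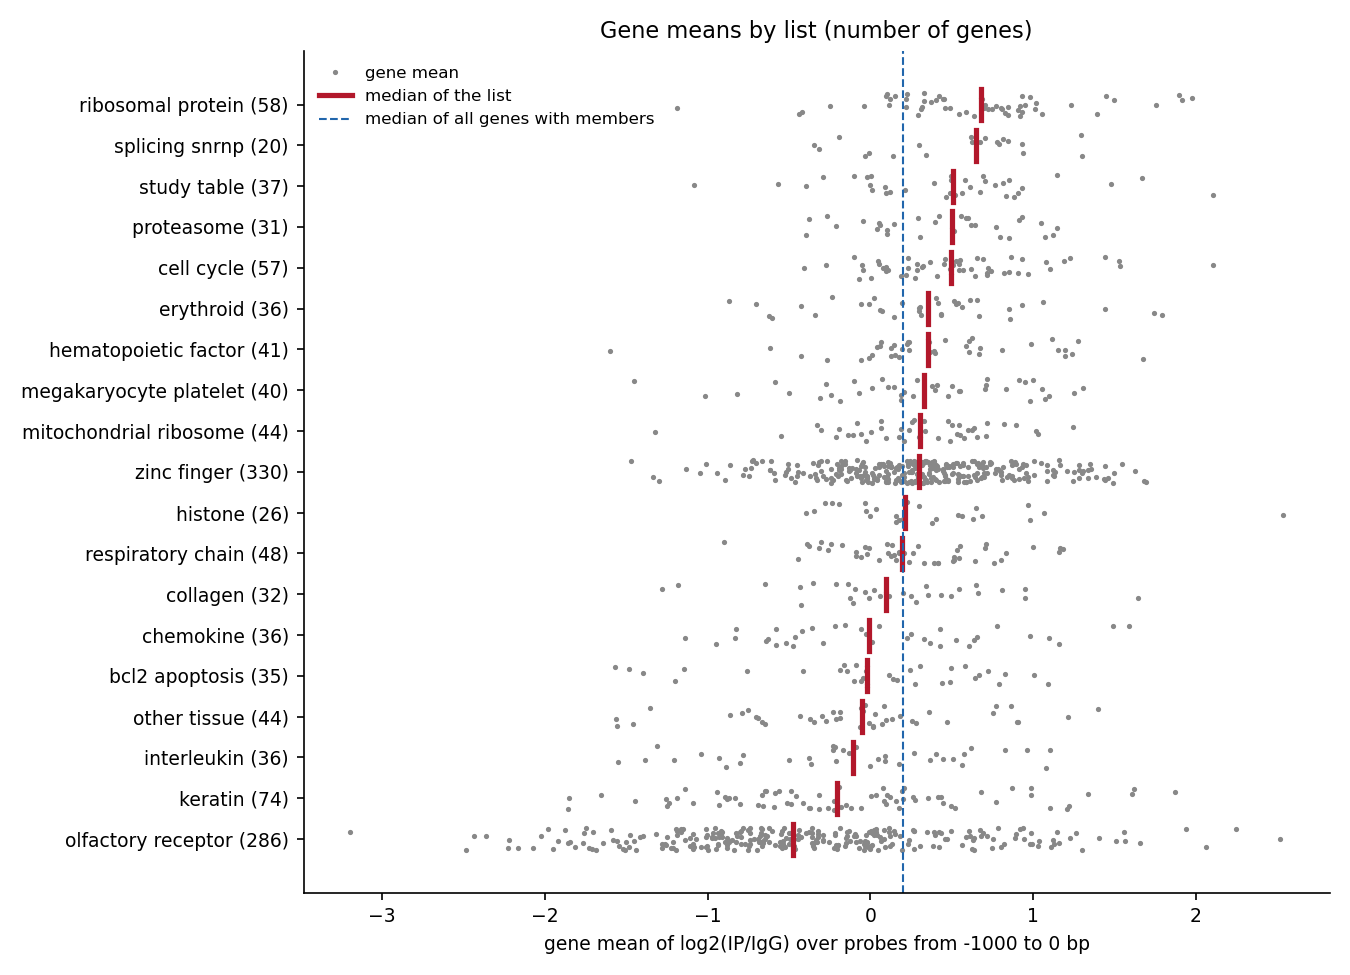
Mean log2(IP/IgG) over the members of each gene (gray points, horizontal axis) for 19 gene lists (vertical axis, with the number of genes), the median of each list (red bars) and the median of all genes with members (dashed line, 0.20). Ribosomal proteins had the highest median, 0.68, and olfactory receptors the lowest, -0.48, and the points of all lists overlap.

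To relate the signal to DNA sequence, the 250 bases before the start were taken from the RefSeq table. A promoter on the same chromosome was found for 10964 of 13501 genes (81.2%), leaving aside genes of the chromosome that the table does not cover, and the most upstream start was used for the 3099 genes with several. Promoters with and without an enriched window held GATA motifs in nearly the same share. Of 2236 genes with an enriched window, 409 (18.3%, exact 95% interval 16.7 to 20.0) held at least 1 GATA motif, and of 8240 without one, 1473 did (17.9%, 17.1 to 18.7). The intervals cover counting only. The motif was searched in these 250 bases alone, whereas windows were centered anywhere from -1000 to 0 bp. With members from -300 to 0 bp alone, the shares were 19.9% with and 17.8% without an enriched window. Genes with a depleted window held a GATA motif in 28.4% of 1305 promoters, against 16.5% of 9171 without a depleted window. The base composition of these promoters differed as well, with a mean GC content of 53.1% in genes with a depleted window and 62.6% in the rest, while genes with and without an enriched window had 61.3% and 61.4%.

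GATA motifs are AT-rich, and their share depends on the GC content. Among promoters of 21.2% to 56.8% GC, 36.2% of the genes with an enriched window and 36.6% of the others held the motif. In the middle range, 57.2% to 68.0% GC, the shares were 14.1% and 13.2%, and above that 4.75% and 3.495%. An enriched window was present in 21.3% of 8594 genes with 0 motifs, 22.4% of 1529 with 1, 18.7% of 294 with 2 and 20.3% of 59 with 3 or more. The median gene mean, by contrast, was 0.22, 0.13, -0.07 and -0.12 in these groups in turn, while their mean GC content went from 63.5% to 41.3%. Other motifs were searched on both strands in the same way. CCAAT, the motif of NF-Y, was in 37.5% of the promoters with an enriched window and 33.4% of the others, and in 32.0% of all RefSeq promoters. CCGGAAG, an ETS motif, was in 12.4% and 10.4%, and in 8.52% of all. GGGCGG, the motif of SP1, was in 58.6% and 57.1%, and in 42.6% of all. TATAAA was in 8.36% and 9.36%, and in 10.7% of all, CACGTG, an E-box, in 8.41% and 7.49%, and in 6.34% of all, and TGACTCA, the AP-1 motif, in 3.04% and 3.16%, and in 4.203% of all. No motif of the set contains another, although matches may overlap in part.

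The median gene mean was 0.35 in 1137 genes with CCGGAAG and 0.18 in 9339 without. Within the ranges of GC content, the medians with and without it were 0.33 and -0.01 at low GC, 0.42 and 0.26 in the middle range and 0.28 and 0.26 at high GC. For the GATA motif, the medians were 0.09 in 1882 genes with it and 0.22 in 8594 without, and within the ranges of GC content -0.02 and 0.04, 0.29 and 0.29, and 0.27 and 0.26. The median was lower with the motif at low GC, which held 1282 of the genes with it, and about equal in the other ranges. Genes are not independent replicates, and the part of GC content in the difference was not tested. The ratio of observed to expected CpG had a mean of 0.70 in genes with an enriched window, 0.64 in those without, and 0.46 in those with a depleted window.

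When the genes were divided into 10 groups by GC content, the median gene mean was -0.24 in the group of 21.2% to 42.8% GC, 0.31 in the group of 66.0% to 68.8% and 0.21 in that of 77.2% to 96.4%. Genes with a depleted window made up 36.3% of the first group, 7.18% of the second and 7.32% of the last, and genes with an enriched window 17.3%, 23.7% and 15.1%. GATA motifs were present in 50.9% of the promoters in the group of lowest GC and in 1.05% of those in the highest. The median intensity percentile was 14.8 in the lowest group and between 35.6 and 63.9 in the others, highest at 59.6% to 62.8% GC and 48.1 in the group of highest GC. Brightness thus rose with GC content in the lower part of the range and fell in the upper part, and the part of each in the values was not tested.

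**Figure D5:**
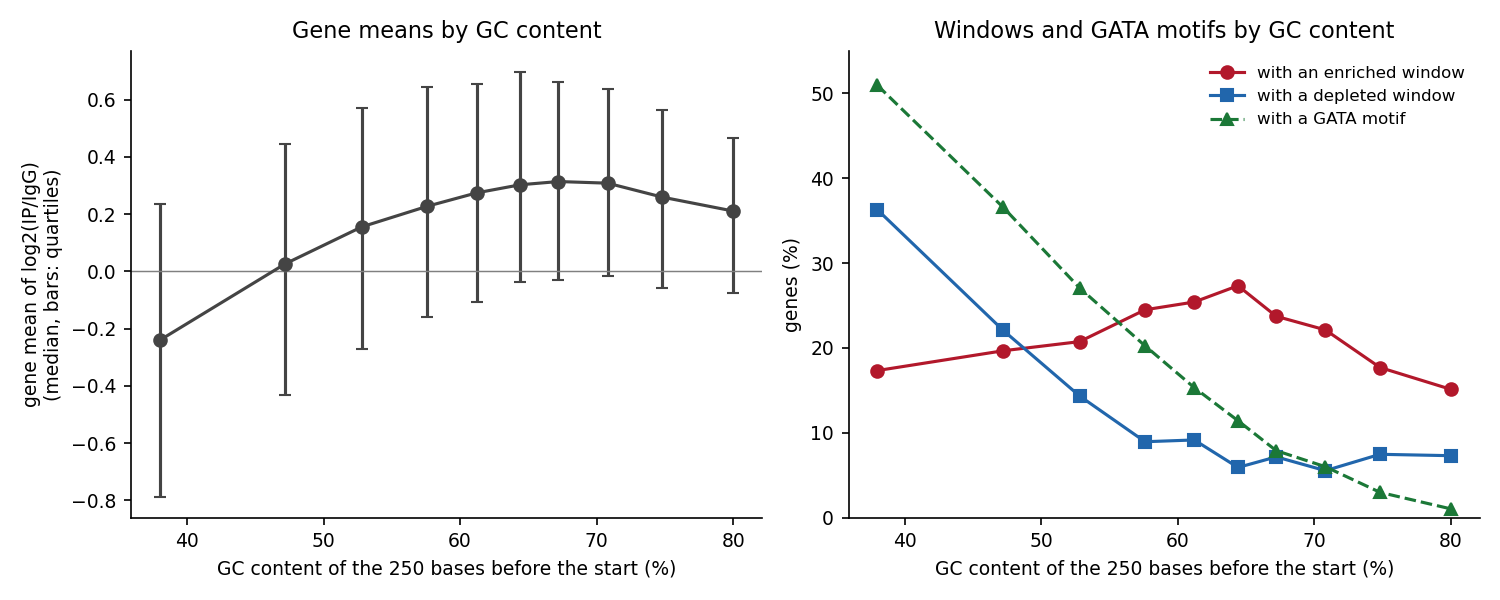
Left, median gene mean of log2(IP/IgG), with quartiles as bars, against the median GC content in percent of the 250 bases before the start, for 10 groups of genes. Right, the percent of these genes with an enriched window, a depleted window or a GATA motif; the depleted share was 36.3% at the lowest GC content, and the share with a GATA motif went from 50.9% to 1.05%.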

How the data were processed

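Scanner files of both arrays were deposited by the authors. Per the file headers, they were written by version 9.5.3.1 of Agilent Feature Extraction under a ChIP protocol. Each deposited processed intensity had a spatial surface subtracted and was dye-normalized with a linear factor. The deposited log10 ratio was Cy5 over Cy3 (IP over IgG), the deposited p-value of that ratio came from the scanner error model, and the deposited value table of the series held the same log10 ratios. The study's lowess normalization and peak calling in commercial software were not repeated.

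The log2 ratios used here were computed from the deposited processed intensities, after which each array was centered on its median. Control spots, uneven spots and probes close to background in both channels were not used, which removed 47 of 61139 members. Of the kept members, 244 passed the background limit in the IP alone and 42 in the IgG alone. Windows held 3 adjacent probes with steps of at most 1000 bp, and 57456 members had one. A gene is the symbol listed first by the array, so promoters of one symbol were pooled. Raw signals were low, with medians of 608 to 625 in the IP and 438 to 462 in the IgG channel, against 340 to 342 and 303 for negative controls. The number of arrays limits the precision. Across 2392 control probes with 1 spot on each array, the SD of the difference between the arrays was 0.17, beside an SD of 0.96 of their values, which covers hybridization and scanning only. The window step was tested on simulated data.

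Named genes were 12 genes chosen from those the study checked by PCR or named (DYRK1A was not among them), genes of the 3 blood lineage lists with an enriched window, the 10 highest and 10 lowest gene means (at least 4 members, intensity at or above the array median), and up to 3 highest and 2 lowest of each other list; any other was named after its values were seen. Of 19 lists, 12 were matched by symbol pattern and 7 by name. Members and lists were chosen with earlier results of these data known. RefSeq promoter sequences (GRCh38.p14) were matched by gene, since no sequence of the array build was used here. Python 3.11.15 with pandas 2.3.3, numpy 2.4.6 and scipy 1.17.1 was used, and R 4.3.3 with limma 3.58.1 for the alternatives loess (span 0.3) and normexp (offset 50).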

Additional observations from a re-analysis of the deposited data

How the results depend on the processing

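No paired analysis was possible because the arrays share no genomic probe and the values come from no test. Loess, the series value table, a looser and a stricter filter on dim probes and the use of any listed gene left the counts of windows and genes within 1.5 times of those reported. Normexp gave 3345 enriched and 854 depleted windows in 1733 and 484 genes, with 79.7% on the IP side, and of the 2768 genes reported as enriched, 1505 (54.4%) also were with normexp, which is 86.8% of its genes. The cause was not tested. Single probes gave 8631 and 5625 in 5353 and 3256 genes (IP side 60.5%), and windows of 5 gave 3363 enriched windows in 1548 genes and a depleted window in 992 genes (IP side 59.5%). Windows with 3 members gave 3303 and 2028 in 1873 and 1140 genes. At 1.5-fold there were 14116 and 7725 windows in 6056 and 3369 genes (IP side 64.6%), and at 3-fold 1127 and 925 in 678 and 503 (54.9%). The scanner error model gave 11018 and 6582 in 5696 and 3348 genes. From -500 to 0 bp there were 3509 and 1609 windows, the latter in 952 genes, with 68.6% on the IP side and a probe median of 0.25. On chIP1 alone there were 2949 and 1656 windows in 1467 and 804 genes (64.0%, probe median 0.20), and on chIP2 alone 2511 and 1722 in 1301 and 815 (59.3%, 0.16). Fewer windows, probes or arrays, or another threshold, change these counts by construction. With loess the IP side held 64.8%, and the probe median was 0.15. The medians of the gene lists kept their sign with loess, normexp, the series values and both filters, except chemokines with loess (0.0606) and apoptosis genes with loess (0.0201) and normexp (0.0547), and zinc finger genes went to 0.26 with loess. The shares with a GATA motif, with and without an enriched window, were 36.2% and 36.6%, 14.1% and 13.2%, and 4.75% and 3.495% from low to high GC content. They stayed within the counting intervals in the other settings, among them the use of genes with 1 start, which was chosen after seeing the data.

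Of the 128 named genes with a window, 934 of 1000 recomputed values did not cross 2-fold, 56 fell below it and 9 rose above it. The value recomputed was the highest window of each gene. Genes such as VEGF (0.14) and EDG7 (-0.96) had a highest window under 2-fold from the outset and could not fall below it. The depleted windows of the genes with the lowest means are not covered by this count. Of the 56 that fell below 2-fold, 25 were with normexp, 18 with windows of 5 and 7 with windows of members alone. The highest window of KRTAP4-2, a dim keratin-associated gene, turned to -0.22 with normexp. The low signal over background and the single hybridization limit all values, most at dim promoters. In the dimmest of 4 equal groups of members the SD of single probes was 1.20 on chIP1 and 1.25 on chIP2, and in the brightest 0.60 and 0.58.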
